A study of Rattus norvegicus with 24 samples.

Results

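Potassium channel genes, those whose symbol starts with Kcn, were followed across 6 regions of the rat brain, in saline-treated rats and after the NMDA receptor blocker MK-801. The members were the array probes whose gene name starts with Kcn, apart from Kcnj13, and whose saline channel was well above background on all 4 arrays of at least 1 region. This rule kept 85 probes of 72 genes out of 105 probes of 85 genes with such a name. By the same rule 29466 of all 41012 probes were above background in saline.

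Potassium channels let potassium leave, or with inward rectifiers enter, the cell, and so set the resting potential, the width of the action potential and the rate of firing. Voltage-gated channels (Kcna to Kcnd, Kcnh, Kcnq) assemble with auxiliary proteins (Kcnab, Kcne, Kcnip), and Kcnb channels also with the electrically silent subunits (Kcnf, Kcng, Kcns, Kcnv). Calcium-activated (Kcnma, Kcnmb, Kcnn), sodium-activated (Kcnt), inward rectifier (Kcnj) and leak channels with a pair of pore domains (Kcnk) complete the family, and brain regions are known to differ in the set they use.

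The study asked how an acute dose of MK-801, also called dizocilpine, changes the transcriptome of each region. Male Wistar rats were injected intraperitoneally with saline or with the drug, at 0.08 mg/kg (called the low dose here) or at 0.16 mg/kg (the high dose), and the brains were taken after 40 min. The labels give an age of 9 weeks per sample and of 10 weeks in the description of the design, and name 9 rats, 3 of them given saline. Cortex, hippocampus, amygdala, ventral striatum, hypothalamus and midbrain were each hybridised as treated against saline RNA of the same region on 2 arrays of opposite dye per dose, 24 arrays in all. The labels do not say how many rats an extract holds, nor whether both arrays of a pair hold separate extracts, so a pair counted as 1 replicate and p-values measure the spread between regions. With 9 rats for 6 regions and 3 treatments, regions share rats and are not independent replicates.

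Between 56.8% and 89.7% of the spots were well above background in the saline channel of an array, and 236 to 708 spots per array were set aside as outliers. The labelled tissues were checked with marker genes in saline: 8 of 8 markers of striatal projection neurons were highest in the ventral striatum and 6 of 6 midbrain monoamine markers in the midbrain. Of the 2 cortical markers measured 1, Lamp5, was highest in the cortex, and Rorb was highest in the hypothalamus (8.80 against 7.86 in the cortex). Hippocampal markers were highest in the hippocampus for 3 of 4, whereas only 3 of 7 hypothalamic markers were highest in the hypothalamus, where 6 of 6 thalamic markers were highest. Of 4 choroid plexus markers 3 were highest in the amygdala. Amygdala markers were highest in the amygdala for 1 of 5. These are tissue pieces, so fewer cells of a type and less RNA per cell cannot be told apart.

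The probes below carry the regional patterns and the drug result that follow. They are listed as the array files give them, with positions on rat build rn3 from the same files. Kcng2 is read by 3 member probes, of which these 2 share the 20 bases in capitals and so are not independent readings (chr18:77263883-77263942 and chr18:77263923-77263982, minus strand).
Kcng2 A_44_P536779: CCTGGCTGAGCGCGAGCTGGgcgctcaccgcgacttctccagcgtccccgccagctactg
Kcng2 A_44_P536780: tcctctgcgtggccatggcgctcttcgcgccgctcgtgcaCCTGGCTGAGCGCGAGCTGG
The next 4 carry regional patterns: Kcnab1 (chr2:155011594-155011653, plus strand), Kcnmb4 (chr7:55802895-55802954, minus strand), Kcnj4 (chr7:117636731-117636790, minus strand) and Kcne2 (chr11:32345809-32345868, plus strand).
Kcnab1 A_44_P442780: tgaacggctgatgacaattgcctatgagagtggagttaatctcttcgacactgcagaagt
Kcnmb4 A_44_P491976: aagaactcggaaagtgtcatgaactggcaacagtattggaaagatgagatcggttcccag
Kcnj4 A_44_P252491: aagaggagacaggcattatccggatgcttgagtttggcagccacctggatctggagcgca
Kcne2 A_44_P414582: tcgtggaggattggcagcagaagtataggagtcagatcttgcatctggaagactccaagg

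Other genes have probes at different positions that did not give the same pattern. Whether the probes of a gene lie in the same transcript was not checked. The 3 Kcnj3 member probes lie at chr8:70761072-70761131, chr8:70763037-70763096 and chr8:70766491-70766550 (plus strand) in the files, although RefSeq's table of build GRCr8 has Kcnj3 on chromosome 3. A further probe named Kcnj3, A_44_P247906, lies on chromosome 3 in the files but was not a member. The pair of Kcnq5 probes lies 47504 bases apart, at chr9:20293598-20293657 and chr9:20341161-20341220 (minus strand), the latter designed from an expressed sequence tag. The first of the Kcnj3 probes is shown whole and the others by their first 30 bases.
Kcnj3 A_44_P452163: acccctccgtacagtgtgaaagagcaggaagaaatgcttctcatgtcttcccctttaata
Kcnj3 A_44_P452282: tgtgtactaacatagattttcctatacatt
Kcnj3 A_43_P12612: gatgatgttaaaagtcagggtaccacaagc
Kcnq5 A_44_P520136: atagcagttgtttctgcaaaaactcagggt
Kcnq5 A_44_P953483: tgtaggtttagatagtgtccatattggaat

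In saline rats the potassium channel probes differed widely between regions. The level of a probe was its log2 signal in the saline channel, given as the mean of the 4 arrays of a region with its SD, and it was compared only within the probe. The median distance between the highest and the lowest region mean was 1.40 on the log2 scale over the 85 members, against 0.74 over all 29466 probes. A distance of at least 4-fold was seen for 27 members (31.8%), against a background of 5.99% of all probes, and one of at least 1.5-fold for 80 members (94.1%), against 65%. The 4 arrays of a region lie on 1 slide and may hold 1 saline extract, so region and slide cannot be told apart and the levels were given no test.

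A member counted as highest in a region when all 4 arrays of that region lay above the arrays of all the other regions and its mean was at least 1.5-fold above the next region. This held for 20 probes of 17 genes (23.5% of the members), against a background of 6.46% of all probes. By the same rule turned round, 12 probes (14.1%) were lowest in a region, against 2.7%. They include Kcnh1, Kcnj16, Kcnmb4 and Kcns3, each also counted as highest in another region. Of the 12, 3 each were lowest in ventral striatum and hypothalamus, 2 each in amygdala and midbrain and 1 each in cortex and hippocampus. The backgrounds there were 0.546%, 0.563%, 0.197%, 0.852%, 0.312% and 0.231%. Cortex and ventral striatum were the top region of 5 probes each, hippocampus of 4, midbrain of 3, hypothalamus of 2 and amygdala of 1. The backgrounds there were 0.686%, 1.24%, 1.1%, 1.31%, 1.23% and 0.896%. The 4 hippocampus probes stand for only 2 genes, Kcng2 and Kcnk6, and the 5 ventral striatum probes for 4 genes.

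**Figure D1:**
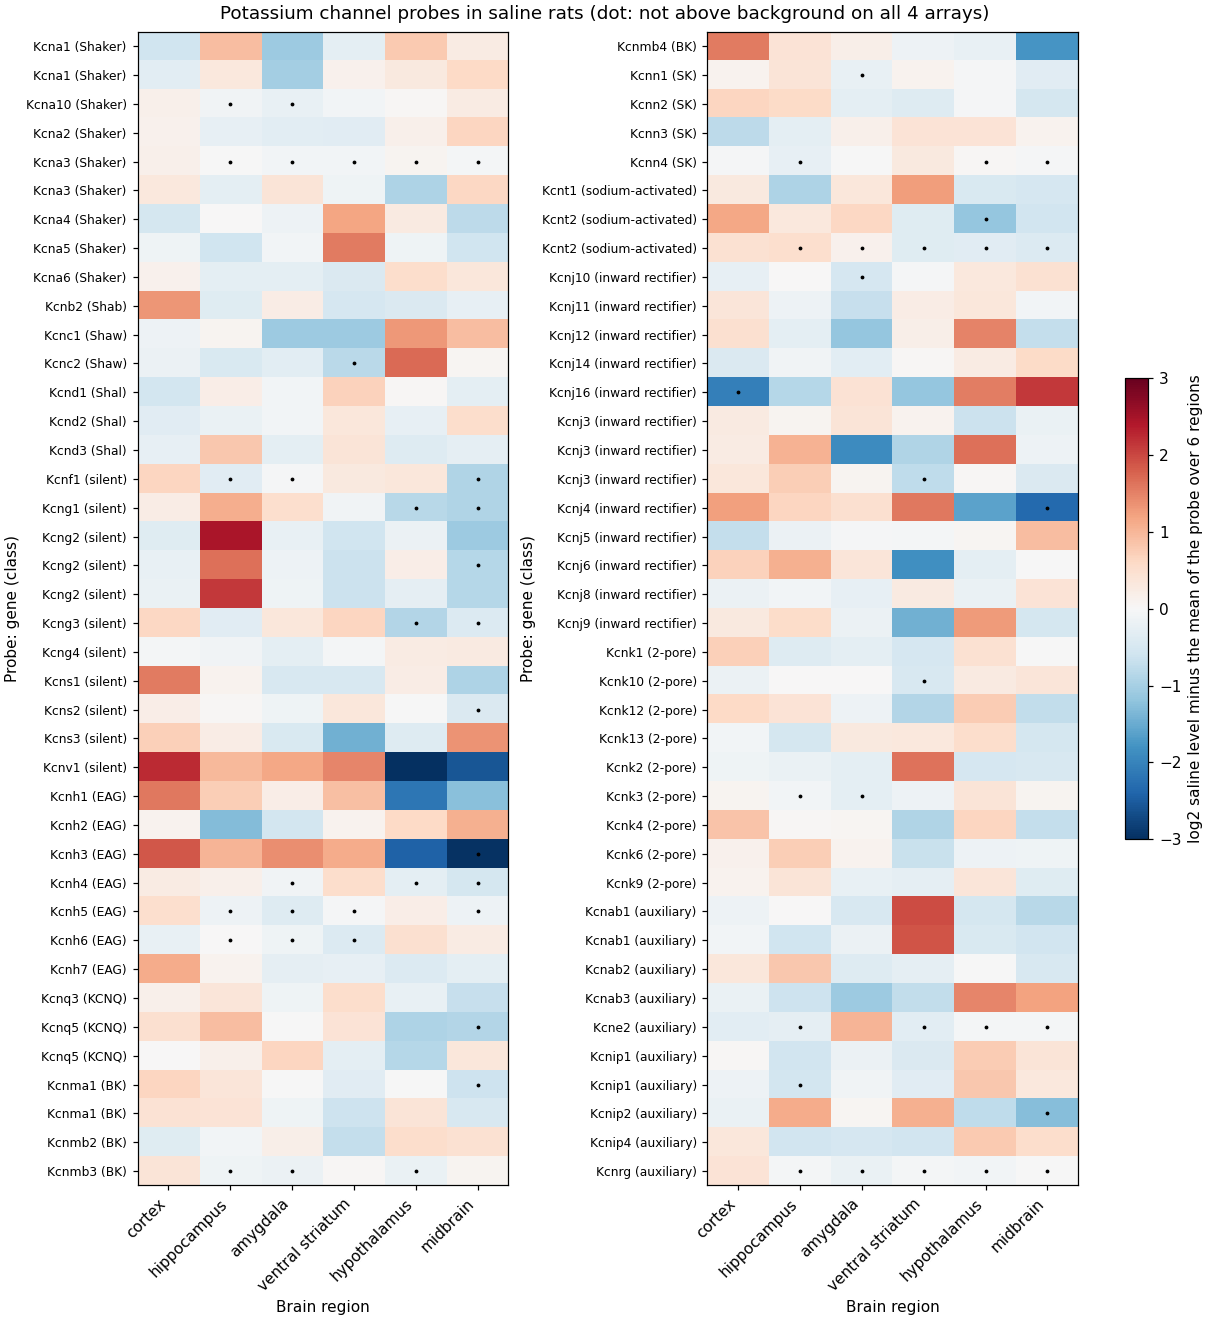
Heat map of the saline level of the potassium channel probes reported here (rows, gene and class) in 6 brain regions (columns), as log2 level minus the mean of the probe over the 6 regions; a dot marks a region where the probe was not well above background on all 4 arrays. Kcnv1 and Kcnh3 are low in hypothalamus and midbrain, Kcng2 is high in hippocampus, and Kcnab1, Kcna5 and Kcnk2 are high in ventral striatum.

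Among the pore-forming voltage-gated channels, Kcna5 of the Shaker class was highest in the ventral striatum. Its levels there were 9.96, 9.37, 9.33 and 9.23 on the 4 arrays, and 7.19 to 8.02 on the other 20. The ventral striatum was 3.13-fold above the amygdala, the next region. Kcna4, an A-type channel, had its highest mean in the same region (11.58 ± 0.43, SD, n = 4 arrays), but its arrays overlapped those of other regions.

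Kcna1, a low-threshold channel of axons, has 2 member probes. Probe A_44_P231457 was lowest in the amygdala, at 12.62, 12.82, 12.82 and 12.83 against 13.07 to 14.68 elsewhere, a step of 1.62-fold below the cortex. The other probe also had its lowest mean in the amygdala (7.95 ± 0.23). Kcna2, its usual partner, varied by only 0.97 between regions, from 7.69 ± 0.35 in the ventral striatum to 8.66 ± 0.33 in the midbrain. Kcna1, Kcna5 and Kcna6 lie side by side on chromosome 4, with 115 kb from Kcna5 to Kcna1 and 111 kb from Kcna1 to Kcna6 between the probes. Neighbouring position did not go with a shared pattern here: Kcna5 was top in the ventral striatum, where Kcna6 had its lowest mean (7.57 ± 0.14).

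Kcnb2, a delayed rectifier of the Shab class, was highest in the cortex, at 9.35, 9.49, 9.40 and 9.79 against 7.22 to 8.64 elsewhere, 2.16-fold above the amygdala. The cortex arrays of Kcnb2 thus stood clear of all others.

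The Shaw channels, which allow fast spiking, had other top regions. Kcnc2 was highest in the hypothalamus, at 9.57, 9.56, 9.39 and 9.62 against 6.81 to 8.36 elsewhere, 3.15-fold above the midbrain. Kcnc1 had its highest means in the hypothalamus (11.87 ± 0.29) and midbrain (11.51 ± 0.21, n = 3 arrays) and its lowest in the ventral striatum (9.49 ± 0.52). Kcnab3, an auxiliary subunit, was likewise at 10.77 ± 0.18 in the hypothalamus and 10.52 ± 0.17 in the midbrain, against 8.21 ± 0.12 in the amygdala. Thalamic markers were also high in the hypothalamus piece: over 6 genes their median level there was 2.39 (log2) above the mean of the other regions. In the midbrain it was only 0.22 above. The part of these markers in the Kcnc1, Kcnc2 and Kcnab3 levels was not tested.

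The Shal channels, which carry the dendritic A-type current, had no regional call: Kcnd2 spanned 0.87 between region means and Kcnd3 1.19, with the hippocampus on top for Kcnd3 (8.73 ± 0.27). The KCNQ channels, which carry the M-current, had none either. Kcnq3 spanned 1.21. Of the Kcnq5 probes, A_44_P520136 was highest in hippocampus (8.76 ± 0.15) and low in hypothalamus (6.92 ± 0.06), whereas A_44_P953483 had its highest mean in amygdala (12.53 ± 0.37).

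The Kcnh genes (EAG, ERG and ELK channels) held some of the widest patterns. Kcnh1 was highest in the cortex, at 14.47, 14.08, 14.26 and 14.31, and lowest in the hypothalamus, at 10.49, 10.48, 10.66 and 10.51, a 13.4-fold distance over 22 arrays with a value. Kcnh3, a forebrain ELK channel, went from 11.79 ± 0.21 in the cortex to 7.51 ± 0.15 in the hypothalamus and 6.97 ± 0.09 in the midbrain, 28.3-fold between the extremes. Its 4 forebrain regions lay close together (10.95 to 11.79), so no single region was called. Kcnh7, an ERG channel, was highest in the cortex, at 9.24, 9.01, 9.03 and 9.03 against 7.20 to 8.58. Kcnh2, the ERG channel best known from the heart, was lowest in the hippocampus (10.04, 10.29, 10.31 and 10.22 against 10.39 to 12.78) and had its highest mean in the midbrain (12.59 ± 0.15).

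Electrically silent subunits form no channel alone but change Kcnb channels they join. Kcng2 showed the steepest single-region pattern of the members. Probe A_44_P536774 read 10.91, 10.65, 10.98 and 10.69 in the hippocampus against 7.21 to 8.28 on the other 20 arrays, 6.09-fold above the hypothalamus. The probes shown above with a shared stretch were 4.77-fold (A_44_P536780) and 2.74-fold (A_44_P536779) above the next region. All 3 member probes thus put the hippocampus on top with no overlap of arrays. A further Kcng2 probe, A_42_P520472, was not a member and did not show this. It was well above background on 3 cortex arrays and on 0 hippocampus arrays.

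Kcnv1 had the widest range of all members. Its hypothalamus arrays read 7.56, 7.37, 7.38 and 7.77, against 8.03 to 13.32 elsewhere, and the cortex mean (13.02 ± 0.46) was 45.1-fold above the hypothalamus mean. The midbrain was nearly as low (8.22 ± 0.20), and the 4 forebrain regions lay between 11.77 and 13.02. Kcns1 was highest in the cortex, at 9.75, 9.53, 9.58 and 9.72 against 7.06 to 8.39, 2.54-fold above the hypothalamus. Kcns3 was highest in the midbrain (11.01, 10.89, 10.74 and 10.66) and lowest in the ventral striatum (8.23, 8.09, 7.82 and 7.96).

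**Figure D2:**
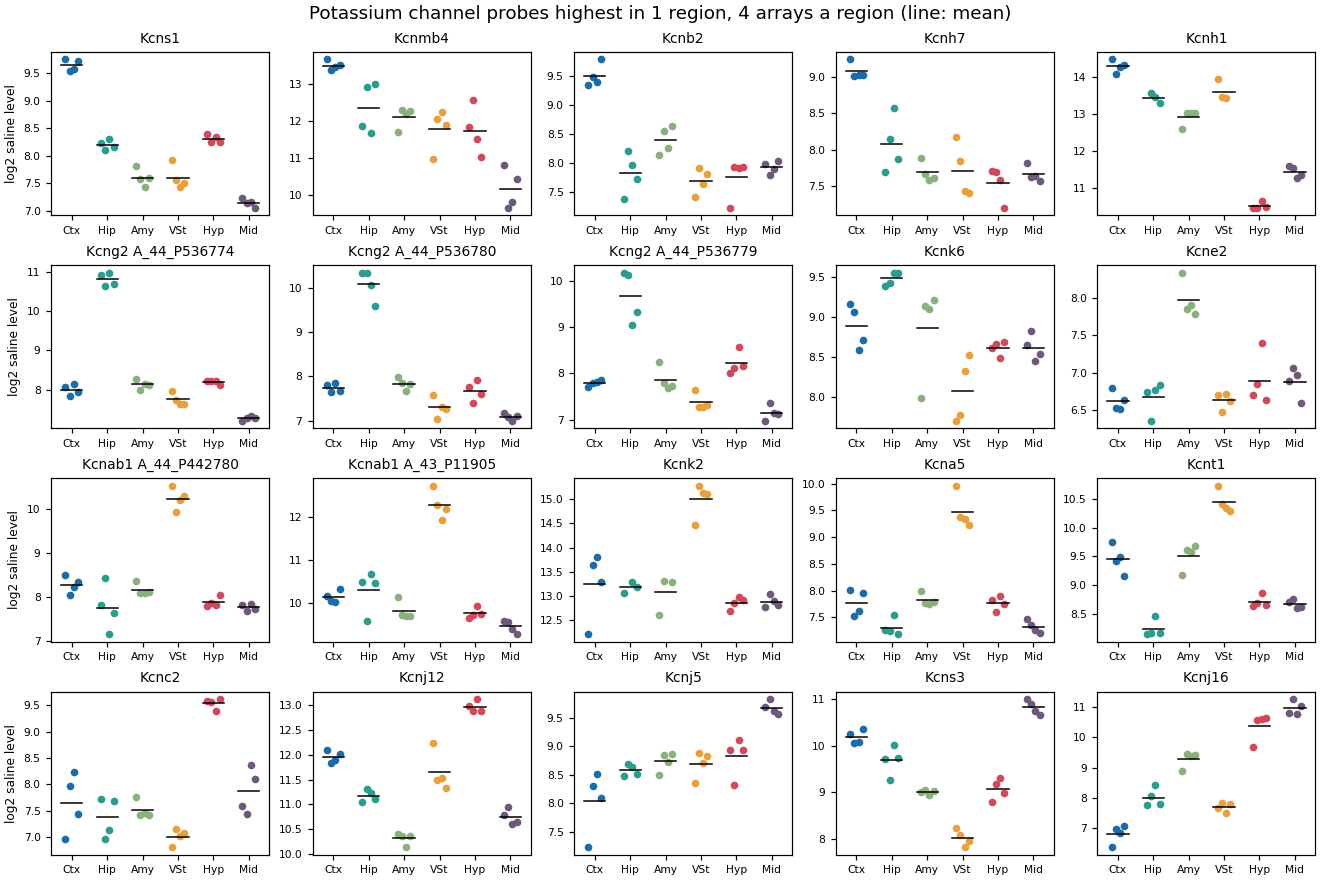
Saline level (y axis, log2 signal) of the 20 potassium channel probes that were highest in 1 region, by region (x axis: Ctx cortex, Hip hippocampus, Amy amygdala, VSt ventral striatum, Hyp hypothalamus, Mid midbrain); each point is 1 of 4 arrays and the line is their mean, and each panel has its own scale. The 3 Kcng2 probes rise in the hippocampus and both Kcnab1 probes in the ventral striatum, with a gap of 6.09-fold for Kcng2 probe A_44_P536774 and of 3.88-fold and 3.90-fold for Kcnab1.

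Calcium- and sodium-activated channels also had regional members. Kcnmb4, the neuronal beta subunit of the BK channel, was highest in the cortex (13.66, 13.37, 13.44 and 13.50) and lowest in the midbrain (10.80, 9.65, 9.80 and 10.42), 10.0-fold apart. The pore subunit Kcnma1 varied less, with 1.27 and 1.05 between the highest and lowest mean of its probes, and both probes had the cortex on top. Of the SK channels Kcnn1, Kcnn2 and Kcnn3 spanned 0.73, 1.16 and 1.19, and none was called. Kcnt1, a sodium-activated channel, was highest in the ventral striatum, at 10.72, 10.40, 10.34 and 10.28 against 8.16 to 9.76, 1.89-fold above the amygdala.

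The 13 inward rectifier probes held 3 of the highest and 5 of the lowest calls. Kcnj3, Kcnj6 and Kcnj9 encode the GIRK subunits that are opened by inhibitory G-protein coupled receptors in neurons. In the ventral striatum Kcnj6 read 7.95, 7.73, 7.59 and 7.97, against 8.81 to 11.35 elsewhere, and was 2.94-fold below the hypothalamus. Kcnj9 read 8.25, 7.54, 8.33 and 8.12 there against 8.70 to 11.31, 1.88-fold below the midbrain. Both GIRK subunits were therefore lowest in the same region. Kcnj5, a GIRK subunit best known from the heart, was highest in the midbrain, at 9.69, 9.83, 9.62 and 9.57 against 7.23 to 9.10.

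The 3 Kcnj3 probes gave 3 different orders. Probe A_44_P452163 was lowest in the amygdala (9.56, 9.10, 9.22 and 9.03) and brightest in the hypothalamus, where only 1 of 4 arrays held a value that was not an outlier spot (12.75). Probe A_43_P12612 had its highest mean in the amygdala (13.13 ± 0.08), and probe A_44_P452282 in the hippocampus (8.30 ± 0.08). No regional statement on the gene as a whole can be made from them.

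Kcnj4, a strong inward rectifier of forebrain neurons, was lowest in the midbrain, at 6.79, 7.44, 6.97 and 6.62 against 7.48 to 11.61, where 2 of 4 arrays were well above background. Its highest mean was in the ventral striatum (10.87 ± 0.56), close to the cortex (10.50 ± 0.29), 15.1-fold above the midbrain. Kcnj12, another strong rectifier, was highest in the hypothalamus, at 12.98, 12.88, 13.13 and 12.89 against 10.13 to 12.24. Kcnj11, the pore of the ATP-sensitive channel, and Kcnj8, its vascular counterpart, had no regional call, with 1.05 and 0.68 between extremes.

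Kcnj16 and Kcnj10 encode partners in the potassium-buffering channel of glia. Kcnj16 was highest in the midbrain (10.79, 11.27, 10.78 and 11.02) and lowest in the cortex (6.36, 6.95, 6.84 and 7.06), 17.9-fold apart, with the hypothalamus next to the top (10.38 ± 0.46). Kcnj10 also had its highest mean in the midbrain (7.77 ± 0.16), then in the hypothalamus (7.63 ± 0.06), but spanned only 0.95. The Kcnj10 probe was dim, down to 6.81 in the amygdala, where 3 of 4 arrays were well above background. In the cortex Kcnj16 was also well above background on 3 of 4 arrays. Oligodendrocyte markers, over 6 genes, had median levels of 1.5 above the other regions in the midbrain and 1.22 in the hypothalamus, and of -1.05 relative to them in the cortex. They were lowest in the amygdala (-1.67), where Kcnj16 was 0.51 above the other regions. Astrocyte markers, over 7 genes, were at 0.00 in the midbrain and -0.21 in the hypothalamus. They were at -0.56 in the cortex, their lowest region, and at 0.38 in the amygdala. The part of either cell type in the Kcnj16 pattern was not tested.

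The 3 midbrain calls, Kcnj16, Kcnj5 and Kcns3, had gaps of 1.5-, 1.80- and 1.55-fold to the next region, and none reached 2-fold. From the saline channel of the low-dose arrays alone none of the midbrain calls was made, against 4 from the high-dose arrays alone. The share of all probes under that split is not given here, so these counts say nothing particular about the members.

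**Figure D3:**
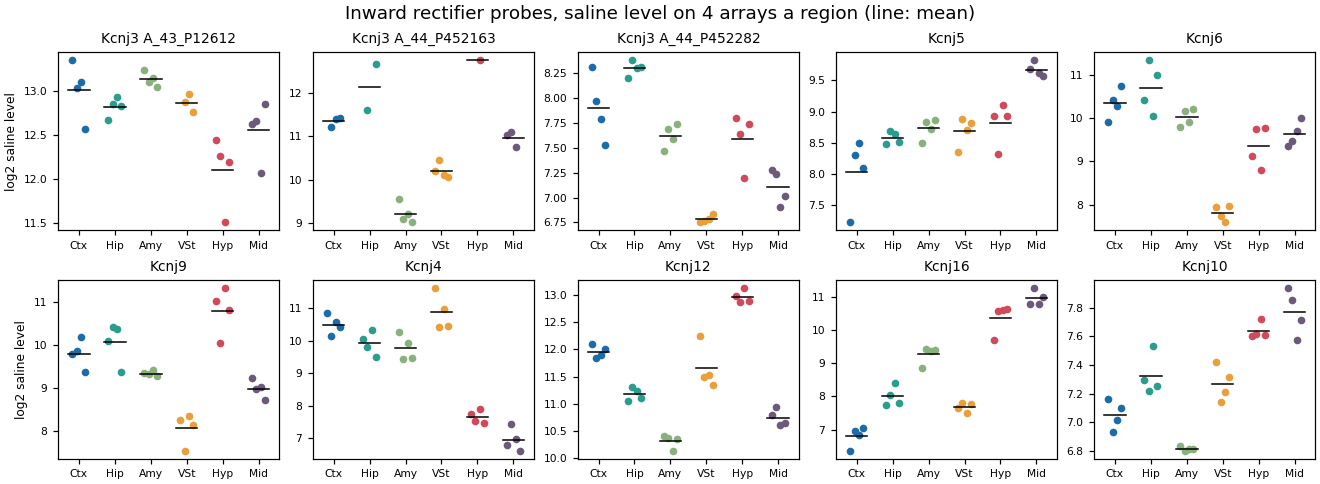
Saline level (y axis, log2 signal) of the probes of 8 inward rectifier genes by region (x axis, abbreviated as Ctx cortex, Hip hippocampus, Amy amygdala, VSt ventral striatum, Hyp hypothalamus, Mid midbrain); points are 4 arrays a region, fewer where a spot was an outlier, and lines are means. Kcnj6 and Kcnj9 are lowest in the ventral striatum, the Kcnj3 probes disagree, and Kcnj16 climbs from 6.80 in the cortex to 10.97 in the midbrain.

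The 9 leak channel probes had a median span of 1.2 between region means, and Kcnk2 the widest, 2.13. Kcnk2, the mechanosensitive channel TREK-1, was highest in the ventral striatum, at 14.46, 15.27, 15.12 and 15.11 against 12.21 to 13.81, 3.37-fold above the cortex. Kcnk6 was highest in the hippocampus, at 9.39, 9.43, 9.55 and 9.55 against 7.70 to 9.21, 1.52-fold above the cortex. Kcnk1, Kcnk3 and Kcnk9 spanned 1.2, 0.68 and 0.75.

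Among the auxiliary subunits, Kcnab1 was highest in the ventral striatum on both of its probes. Kcnab1, a beta subunit that speeds inactivation of Kcna channels, is read by 2 probes 82550 bases apart. Probe A_43_P11905 read 12.71, 12.27, 11.91 and 12.17 in the ventral striatum against 9.29 to 10.68 elsewhere, and A_44_P442780 read 10.52, 9.92, 10.20 and 10.28 against 7.15 to 8.48. They lay 3.88- and 3.90-fold above the next region, so both probes agree on the region and on the size of the step. Kcnab2 spanned 1.30. Among the Kcnip genes, whose proteins bind Kcnd channels, Kcnip2 had its highest means in hippocampus (9.25 ± 0.22) and ventral striatum (9.19 ± 0.33), and Kcnip1 and Kcnip4 in the hypothalamus.

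Kcne2, a small subunit known from choroid plexus epithelium, was highest in the amygdala, at 8.33, 7.85, 7.91 and 7.79 against 6.36 to 7.39 elsewhere. Outside the amygdala it was well above background on all 4 arrays only in the cortex, although its mean was lowest there (6.62). Choroid plexus markers were high in the same piece: Ttr was at 15.22 in the amygdala against 6.88 in the cortex, and over the 4 genes measured the median was 2.39 above the other regions. The same markers were 2.22 above the other regions in the hypothalamus, where the Kcne2 mean was 6.89. The part of the markers in the Kcne2 level was not tested.

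Among the genes with more than 1 member probe, the probes of Kcng2, Kcnab1, Kcnip1 and Kcnma1 put the same region on top, and those of Kcna1, Kcna3, Kcnj3, Kcnq5 and Kcnt2 did not. Kcna3 shows how far probes can part: A_44_P300788 was lowest in the hypothalamus (8.08, 8.07, 8.25 and 8.18 against 8.52 to 9.94), while A_44_P247900 was the most even of all members, spanning 0.23 with levels of 6.57 to 6.80 near the bottom of the scale. Next among the most even members came Kcna10, Kcnn4, Kcng4, Kcnmb3, Kcnrg and Kcnj8, spanning 0.47 to 0.68. Several of these are dim: Kcnrg was well above background on all 4 arrays in the cortex alone. Just outside the rule lay probes with 3 of 4 arrays in their best region, such as Kcne4, Kcnk15 and a further probe each of Kcnj3, Kcnk6 and Kcng2. Kcnj2 was well above background on no saline array.

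Promoters of the members were compared with all RefSeq promoters of build GRCr8, over 250 bases before to 50 after each start. Of the 72 genes 46 had an entry. Their median GC content was 65.8%, against 52.3% over 27457 promoters. The TATA motif TATAAA, on either strand, was in 0 of the 46 and in 14.3% of all promoters, and the GC box GGGCGG was in 50% and 34.9%. The cAMP response element TGACGTCA was in 0 of the 46 and in 1.91%. These matches describe the letters in the window only.

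After MK-801 few potassium channel probes passed the test across regions, and so did few of all probes. The test asked whether the log2 ratio of treated over saline, averaged over both dyes, departed from 0 over the 6 regions, with limma and Benjamini-Hochberg adjustment over all probes tested. At the high dose 66 member probes of 57 genes could be tested, and 0 passed an adjusted p of 0.05, against a background of 2.47% of 21860 probes. At an unadjusted p of 0.05, 9 of the 66 passed (13.6%), against 12.8% of all probes. The median log2 ratio of the members was 0.00, and the extremes were -0.17 and 0.11. The median size of the ratio, sign aside, was 0.0340 for the members and 0.0267 for all probes, so these counts say nothing particular about the members.

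The 5 members with the smallest p at the high dose are given as values, since none passed. Kcna5 was at 0.11 ± 0.03 (SE, n = 6 regions, limma adjusted p = 0.0705), above 0 in 5 of 6 regions. Kcnh1 was at -0.13 ± 0.03 (n = 5 regions, adjusted p = 0.0762), below 0 in all 5, the hippocampus having no value. Kcnj8, the channel of vascular mural cells, was at 0.11 ± 0.03 (adjusted p = 0.112), Kcnv1 at -0.17 ± 0.05 (adjusted p = 0.128) and Kcng2 probe A_44_P536774 at 0.08 ± 0.03 (adjusted p = 0.171), each of 1 sign in all 6 regions. Leaving out the cortex, Kcnh1 passed (-0.16, adjusted p = 0.0426), and leaving out the hippocampus, Kcna5 passed (0.13, adjusted p = 0.0328). The cortex value of Kcnh1 was -0.00584, apart from its other regions. In both runs dropping the region moved the mean away from 0, so they add no support.

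**Figure D4:**
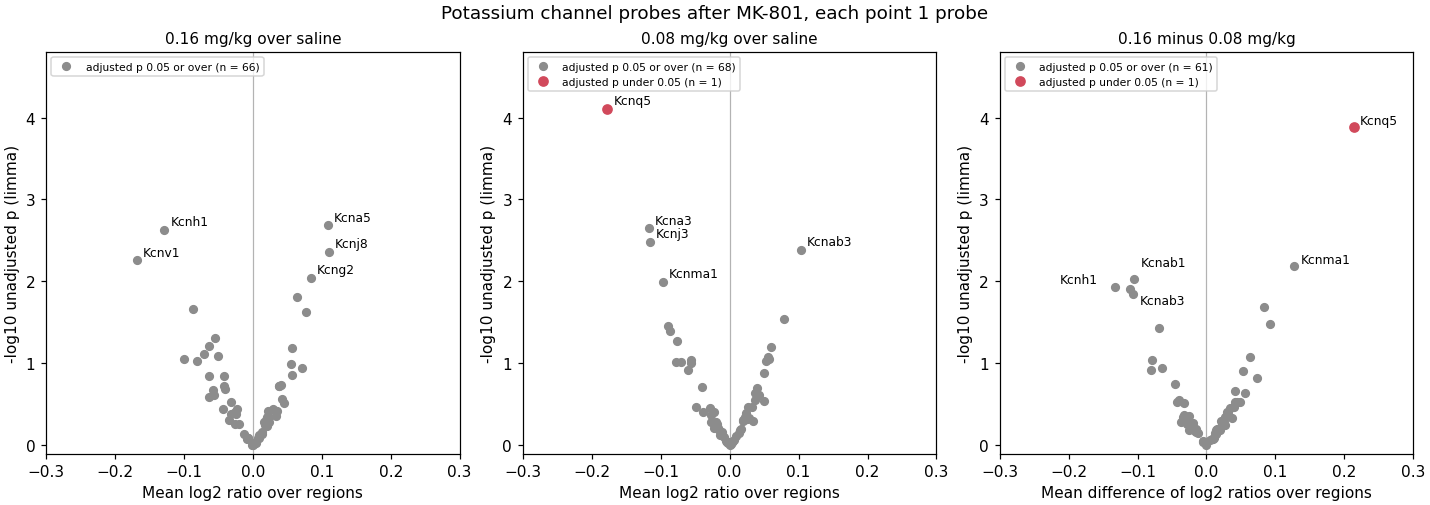
Mean log2 ratio over regions (x axis) against -log10 of the unadjusted limma p (y axis) for the potassium channel probes at 0.16 mg/kg, at 0.08 mg/kg and for the difference between doses; each point is 1 probe, red where its adjusted p is under 0.05, and the 5 smallest p are named. Points crowd around 0 in all panels, and Kcnq5 alone passes, at -0.18 for the low dose and at 0.21 for the difference.

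At the low dose 1 of 69 member probes passed, Kcnq5 probe A_44_P953483, against a background of 2.72% of 23322 probes, 1.38% in this direction. At an unadjusted p of 0.05, 8 of the 69 passed (11.6%), against 13.6% of all probes. Its ratio was -0.18 ± 0.03 (SE, n = 5 regions, limma adjusted p = 0.00651), below 0 in 5 of 5 regions. The array values were -0.07 and -0.18 in the cortex, -0.02 and -0.26 in the amygdala, -0.11 and -0.25 in the hypothalamus, -0.10 and -0.36 in the midbrain, and -0.21 and -0.20 in the ventral striatum. All 10 lay below 0. The hippocampus was left out of the fit because 1 of its arrays was an outlier spot. The other read -0.21, and at the high dose the hippocampus pair averaged -0.24. Kcnq5 subunits join Kcnq3 in the M-current channel, which holds back repeated firing.

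The second Kcnq5 probe, A_44_P520136, did not show this: its ratio was -0.01 ± 0.03 (SE, n = 6 regions) at the low dose and 0.00 ± 0.03 after 0.16 mg/kg, with region means of -0.06 to 0.07 at the low dose. With a variance trend and robust estimation the low-dose value of A_44_P953483 stayed at -0.18 but no longer passed (adjusted p = 0.0871). Within scan days its value was -0.17 on the day of cortex and ventral striatum (adjusted p = 0.197) and -0.19 on the day of amygdala and midbrain (adjusted p = 0.959); the hippocampus and hypothalamus day could not be fitted for it.

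The other low-dose members with the smallest p did not pass. Kcna3 probe A_44_P300788 was at -0.12 (adjusted p = 0.0694) and Kcnj3 probe A_43_P12612 at -0.12 (adjusted p = 0.0864), both below 0 in 6 of 6 regions. Kcnab3 was at 0.10 (adjusted p = 0.100) and Kcnma1 probe A_43_P15328 at -0.10 (adjusted p = 0.168), each of 1 sign in 6 of 6 regions.

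The doses were compared by the difference of their ratios, high minus low, within each region. Of 62 member probes 1 passed, against a background of 1.92% of 20986, 1.09% in this direction, and at an unadjusted p of 0.05 9 of the 62 passed (14.5%), against 11.8%. It was again Kcnq5 probe A_44_P953483, at 0.21 ± 0.04 (SE, n = 5 regions, limma adjusted p = 0.0116), above 0 in 5 of 5 regions with values from 0.13 to 0.35. At the high dose its ratio was near 0 in the cortex (0.24 and -0.15), amygdala (0.08 and -0.09), ventral striatum (0.08 and -0.03) and midbrain (0.08 and -0.19), above 0 in the hypothalamus (0.24 and 0.10) and below 0 in the hippocampus (-0.05 and -0.42). The arrays of opposite dye thus had opposite signs in 4 of 6 regions. Both doses were set against saline RNA that may be the same, so this difference and the low-dose result are not independent.

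The call between doses was lost with the processed signals of the scanner software (adjusted p = 0.0659) and with median centring (adjusted p = 0.693), and without the ventral striatum (adjusted p = 0.0648) or the hypothalamus (adjusted p = 0.0537), at values of 0.18 to 0.21. The next members were Kcnma1 probe A_43_P15328 at 0.13 (adjusted p = 0.168), Kcnab1 probe A_43_P11905 at -0.10 (adjusted p = 0.201), Kcnh1 at -0.13 over 4 regions (adjusted p = 0.230) and Kcnab3 at -0.11 (adjusted p = 0.235). None of these passed.

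By class, no other group had a call. The medians at the high dose ran from -0.06 for the 4 Kcnh probes to 0.05 for the 2 Kcnt probes, and at the low dose from -0.06 for the 3 Shal probes to 0.04 for the 7 auxiliary probes. The 11 inward rectifier probes tested at the high dose lay between -0.06 and 0.11 and the 7 leak channel probes between -0.06 and 0.06. Among other genes of potassium handling (Hcn channels, pump subunits, cotransporters, channel anchors), 0 of 43 probes of 28 genes rose and 1 fell at the high dose (against 2.47% of all probes), 0 of 45 passed at the low dose (6 at an unadjusted p of 0.05), and 0 of 42 were higher and 2 were lower in the difference between doses (against 1.92%). All 3 calls were on Atp1b2, a glial sodium pump subunit: probe A_43_P10996 fell by 0.28 ± 0.03 at the high dose (n = 5 regions, limma adjusted p = 0.000292). The other Atp1b2 probes were at -0.10 (A_43_P11439, adjusted p = 0.171) and -0.06 (A_44_P452240, adjusted p = 0.424) and did not pass there.

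Within a region and dose, a member counted when its log2 ratio passed 0.32 with 1 sign on both arrays, a rule with no test. Over all regions and doses 3 members did so, against a background of 0.479% of 325455 probe values. Each region and dose had 72 to 85 members tested. The count of 3 depends on the scaling: it was 15 with the processed signals and 16 with the authors' deposited table. The share of all probes under those scalings is not given here, so these counts say nothing particular about the members. The largest was Kcne2 in the amygdala at the high dose, at 1.02 and 0.97 on the log2 scale, 1 of 72 members against a background of 0.739%. At the low dose the amygdala arrays read 0.16 and 0.24.

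Choroid plexus markers rose with it in the amygdala. In the amygdala at the high dose Ttr was at 1.34, Sostdc1 at 1.61, Otx2 at 1.27 and Folr1 at 0.90, all 4 above 0, and at the low dose the 4 lay between 0.17 and 0.51. In the hippocampus all 4 were below 0 at both doses, with medians of -0.88 and -1.10, where Kcne2 was not well above background on any saline array. In the hypothalamus all 3 markers with a value were below 0 at the high dose (median -1.19). At the low dose 3 of 4 were above 0 there (median 0.22). Kcne2 had no call in the hypothalamus, where 3 of 4 saline arrays were well above background. The part of the markers in the Kcne2 ratio was not tested.

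Both other counts came from the hypothalamus and from genes that were low there in saline. Kcnv1 read -0.38 and -0.48 at the high dose, 1 of 78 members against a background of 0.631%, and Kcnh3 read -0.36 and -0.35 at the low dose, 1 of 77 members against 0.349%. With median centring in place of loess Kcnv1 averaged -0.36 and Kcnh3 -0.31, but neither passed on both arrays. Both passed with an offset of 16 (-0.62 and -0.49), with processed signals (-1.04 and -0.69) and with the authors' deposited table (-1.05 and -0.70). Lamp5, a marker of cortical neurons that was at 12.24 in the cortex and 7.76 in the hypothalamus in saline, was at -0.40 in the hypothalamus after 0.16 mg/kg and at -0.29 after 0.08 mg/kg, and Rorb, the other measured cortical marker, was at 0.09 and 0.08. Whether tissue at the edge of the piece plays a part was not tested.

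**Figure D5:**
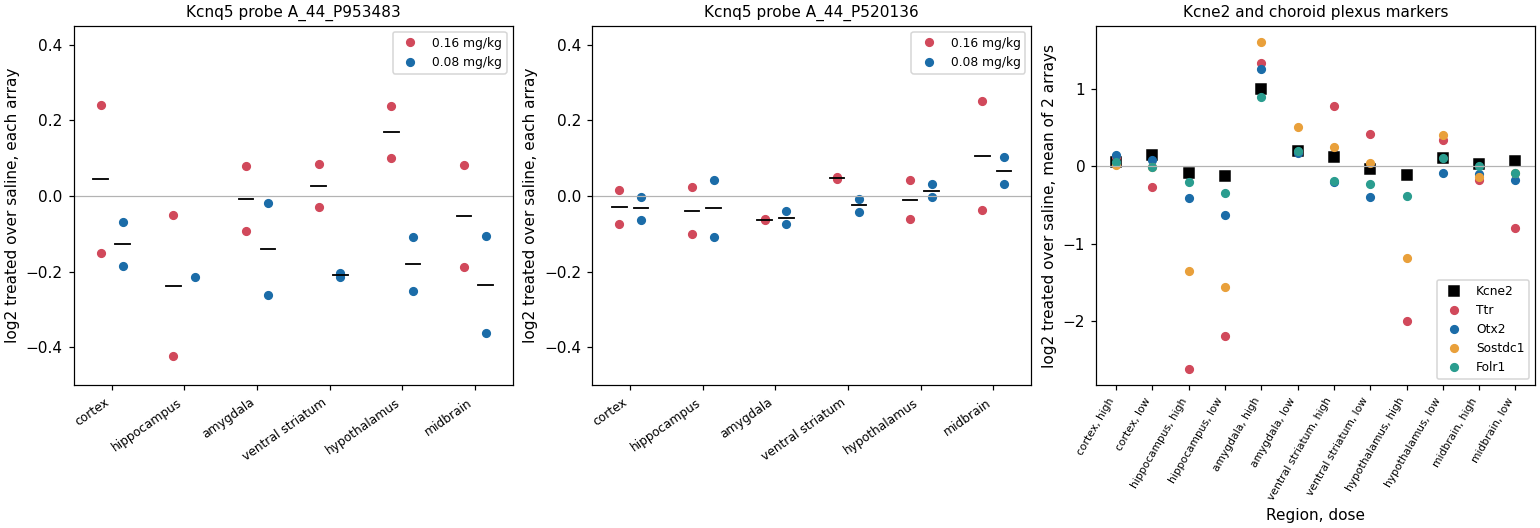
Left and middle, log2 ratio of treated over saline on each array (y axis) for the Kcnq5 probes by region (x axis), red at 0.16 mg/kg and blue at 0.08 mg/kg, with a line at the mean of a pair. Right, mean log2 ratio of Kcne2 (black squares) and 4 choroid plexus markers by region and dose; Kcne2 (1.0) and all 4 markers are high in the amygdala at the high dose, and the low-dose values of Kcnq5 probe A_44_P953483 all lie below 0.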

How the data were processed

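The 24 files are scanner output of 2-colour Agilent rat arrays; per the file headers, Feature Extraction 9.5.3.1 made the spot intensities (mean, background and processed signal) on build rn3. The authors' deposited value table holds log10 ratios, which matched treated over saline from the processed signals; how it was normalised is not stated in the labels or headers. Intensities were corrected with normexp (offset 50) and normalised by loess within arrays (limma 3.58.1, R 4.3.3); outlier spots were left out, and dye-swapped pairs were turned and averaged. A probe was tested when the saline or the treated channel was well above background on both arrays in all 6 regions and at least 4 regions had a value. limma's moderated test of the mean over regions was adjusted by Benjamini-Hochberg over all probes. Saline levels were normalised between arrays by Aquantile; a region was called only where all its arrays held a value. No member was saturated. The scripts were tested on simulated data. Named were the members past each threshold (if fewer than 3, the 5 smallest p), all regional calls, the 8 most even members and well-studied channels; a few members count in the totals but are not reported here. The members and lists were chosen with earlier results of these data known. The number of arrays limits the precision. Alternatives tried are in the closing section.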

Additional observations from a re-analysis of the deposited data

Results flagged for a closer look

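Kcnh1 at the high dose had a cortex value of -0.00584, apart from its other 4 regions, which lay between -0.19 and -0.14. It was the 1 such case among 15 sets of region values examined, and chance gives about 1 in 20. Kcnq5 probe A_44_P953483 differed between doses by 0.21 (high minus low, limma adjusted p = 0.0116, 5 of 5 regions above 0), and the other Kcnq5 probe, A_44_P520136, read 0.01 ± 0.03 (SE, n = 6 regions, limma adjusted p = 0.910).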

How the results depend on the processing

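The high-dose count of 0 rose to 1 within scan day 3, that of hippocampus and hypothalamus (Kcnc1), and ranged from 0 to 1 without each region in turn. The low-dose count of 1 became 0 within each scan day and with trend and robust estimation, and stayed at 1 without each region. The count between doses became 0 with processed signals, with median centring, with the authors' deposited table, within each scan day, and with trend and robust estimation, and ranged from 0 to 1 without each region. Arrays of 1 dye alone gave 17 to 23 calls at the high dose, 16 to 19 at the low dose and 0 to 1 between doses. A dye effect does not cancel there, and the share of all probes called with 1 dye is not given. The saline count of 20 ranged from 14 (2-fold minimum) to 28. The count of 3 past 0.32 (log2) on both arrays moved to 15 with processed signals and 16 with the deposited table. The cause was not tested. No share of all probes is given beside any count in this section, so the counts say nothing particular about the members. No paired analysis was possible because the replicate number only marks the dye orientation within a pair that was averaged; doses were paired by region. Signal over background limits the dim members.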
